A study of Mus with 4 samples.

Results

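The sarcomere, the contractile unit of heart muscle, was examined through 10 genes that encode its motors, filaments and calcium switch, out of 55487 gene IDs in the deposited table. They were taken as a fixed list of Ensembl gene IDs, matched without the version suffix, and each of the 10 was found as 1 row of the table. The list comprises *Myh6*, *Myh7* and *Mybpc3* of the thick filament, the giant scaffold *Ttn*, the actins *Actc1* and *Acta1*, and the troponin genes *Tnnt2*, *Tnnc1*, *Tnni3* and *Tnni1*. Libraries were made from heart tissue of mice at postnatal day 0 (P0), with 2 WT and 2 miR-187 libraries, to learn how a raised level of this microRNA alters the cardiac transcriptome.

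In the miR-187 mice, a single copy of mouse miR-187 was inserted at the *Rosa26* locus by CRISPR/Cas9 on a C57BL/6J background, and the *Tek* (*Tie2*) promoter limits its expression to endothelial cells, so the designed source of the microRNA is not the cardiomyocyte, the cell that makes the transcripts described here. The study's methods name KI/KI (homozygous) and WT newborns for RNA-Seq, whereas the labels give no zygosity. The methods also speak of cardiac endothelial cells for this assay, and describe CD31 beads for isolating them from mouse hearts, whereas the labels and the design text speak of heart tissue. Cardiomyocyte-defining transcripts were abundant in every library, with *Actc1*, *Tnnt2* and *Tnnc1* each at 1419 FPKM or more. The number of founders and of animals per library is not given in the sources used here, and p-values therefore measure only the spread between these libraries, which may be technical. In bulk samples, fewer cardiomyocytes and less of a transcript per cardiomyocyte cannot be told apart. Had the cells been selected for CD31, which cardiomyocytes lack, the levels below would measure cardiomyocyte RNA carried through the selection. Whether the libraries came from such cells or from whole tissue was not tested, as cell type markers are not analysed here.

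Thick filaments are built of myosin heavy chains, which pull on thin filaments of actin when troponin, after binding calcium, moves aside tropomyosin. Several of these parts exist as developmental isoforms. In the ventricles of rodents, beta myosin heavy chain (*Myh7*, the slower motor) gives way around birth to alpha myosin heavy chain (*Myh6*, the faster motor, which atria express throughout), and slow skeletal troponin I (*Tnni1*) gives way to cardiac troponin I (*Tnni3*). Skeletal alpha-actin (*Acta1*) accompanies cardiac alpha-actin (*Actc1*) in the developing heart, and *Myh7* and *Acta1* are well known as parts of the fetal program that stressed hearts use again.

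Values are the authors' FPKM, fragments scaled to transcript length and to the library's mapped total, so that levels can be compared between genes. Read depth is unknown, as the table holds no counts. The FPKM sums lay between 750826 and 807359 per library, of which 1 non-member ID, ENSMUSG00000075014.1, made up 18.5% and 21.0% in the replicate 1 libraries of WT and miR-187, but 4.45% and 3.03% in their replicate 2 libraries. Differences are given on the log2(FPKM + 1) scale as miR-187 minus WT, and the 14325 IDs averaging 1 FPKM or more, all 10 sarcomere genes among them, were tested with limma, with p-values adjusted over all of them.

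To see how much of each library the sarcomere accounts for, the FPKM of the 10 genes were summed. WT replicates 1 and 2 summed to 10436 and 17260 FPKM, whereas miR-187 replicates 1 and 2 summed to 6825 and 10478 FPKM. As a share of all FPKM, WT had 1.29% and 2.30% against 0.870% and 1.32% for miR-187. WT replicate 2 was thus the highest and miR-187 replicate 1 the lowest, while the other two libraries, 1 of each group, differed little. The groups overlapped in this share (1.80% ± 0.712 in WT and 1.10% ± 0.320 in miR-187, SD, n = 2 each). Without WT replicate 2 the difference in the share shrank from 0.699 to 0.196 percentage points, without miR-187 replicate 1 it was 0.473, and without WT replicate 1 it grew to 1.20. With the 10 most abundant other IDs of each library taken out of the denominator, the WT shares were 2.34% and 3.39%, above miR-187 shares of 1.66% and 2.21%, so the groups no longer overlapped.

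The cardiac actin and troponin transcripts were the most abundant members. Over the 4 libraries, mean levels were 2554 ± 1171 FPKM for *Tnnt2*, 2406 ± 1148 FPKM for *Actc1*, 2214 ± 835 FPKM for *Tnnc1*, 1663 ± 516 FPKM for *Tnni3*, 1294 ± 399 FPKM for *Myh6* and 766 ± 441 FPKM for *Tnni1* (SD, n = 4). *Myh7* had 170 ± 256 FPKM, *Mybpc3* 137 ± 82.1 FPKM, *Ttn* 24.3 ± 15.3 FPKM and *Acta1* 21.4 ± 11.7 FPKM. The ranges of neighbours in this order overlapped for all neighbouring pairs but *Mybpc3* and *Ttn*. Within single libraries, *Tnnt2* exceeded *Actc1* in 2 of 4 (the second replicates), *Actc1* exceeded *Tnnc1* and *Tnni1* exceeded *Myh7* in 4 of 4 libraries, and *Myh7* exceeded *Mybpc3* in 1 library, WT replicate 2. By rank among all 55487 IDs, *Myh7* came 146th in WT replicate 2 and between 940th and 1527th elsewhere.

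**Figure D1:**
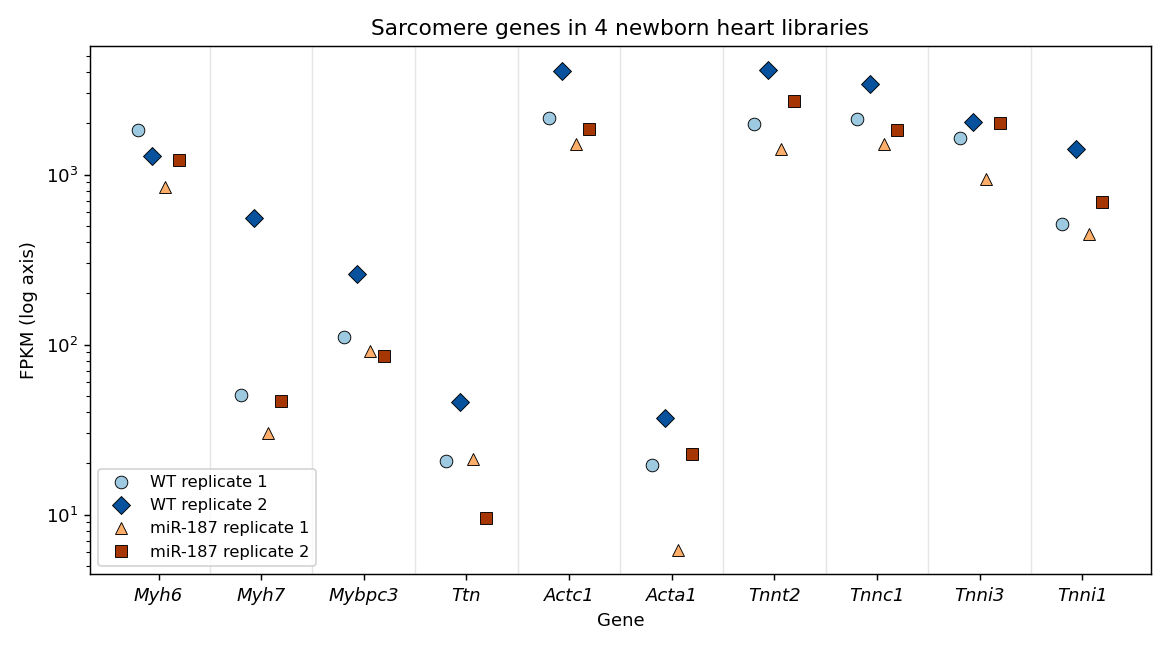
FPKM of the 10 sarcomere genes (x axis) in each library on a log axis (y axis), with 1 point per library. *Myh7* in WT replicate 2, at 554 FPKM, lies far above its 3 other points, all at or below 50.4 FPKM, and WT replicate 2 is the highest library for every gene but *Myh6*.

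*Myh7* (ENSMUSG00000053093), the beta myosin heavy chain of the slow and fetal ventricular motor, lies on chromosome 14 at 54970684 to 54994626 (RefSeq, GRCm38.p6). WT replicate 1 had 50.4 FPKM and WT replicate 2 had 554 FPKM, against 30.4 and 46.5 FPKM for miR-187 replicates 1 and 2, the order used from here on. WT replicate 2 was 11.0 times WT replicate 1, and the 3 remaining libraries lay within 1.66-fold of one another. Both miR-187 libraries were below both WT libraries, but miR-187 replicate 2 was so close to WT replicate 1 that the groups overlapped with TMM factors or median centring. On the log2 scale the difference came to -2.13, with standard error 0.67 and a 95% interval of -3.52 to -0.74 (limma unadjusted p = 0.00431, adjusted p = 1.00). This error is drawn toward that of other genes, and the 4 values of *Myh7* alone gave one of 1.74. Without WT replicate 2 the difference was -0.41, and without WT replicate 1 it was -3.85. Where a library is left out, its group has 1 library, and the error is taken from the spread of other genes, not of *Myh7* itself.

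*Myh7* was set apart from most genes by this gap between replicates. Of the 14325 tested IDs, 5 including *Myh7* differed by at least as much between the WT libraries (3.43 on the log2 scale), which is 0.0349%. WT replicate 2 had 4 IDs, *Myh7* being 1 of them, that reached 10 FPKM and exceeded every other library by 10-fold or more, compared with 16 for miR-187 replicate 2 and 0 for each replicate 1 library.

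*Myh6* (ENSMUSG00000040752), the alpha myosin heavy chain of the atria and the adult rodent ventricle, lies beside *Myh7* at 54941921 to 54968017 on chromosome 14, with a gap of 2666 bp between both annotations. WT libraries gave 1817 and 1292 FPKM, whereas miR-187 libraries gave 848 and 1220 FPKM. *Myh6* was the only one of the 10 genes that was higher in WT replicate 1 than in WT replicate 2, opposite to its neighbour. The groups did not overlap in the deposited values but did so with TMM factors, median centring or quantile normalization, as the second replicates were close. Its log2 difference came to -0.59 ± 0.45 (standard error, limma adjusted p = 1.00). It was -0.26 with quantile normalization, -0.35 without WT replicate 1, -0.33 without miR-187 replicate 1, and -0.84 and -0.85 without either of the replicates 2.

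Both heavy chain genes are near-identical over long stretches, so reads may be divided between them in ways that the table does not show, and their values are uncertain to that extent. The RefSeq annotation also places 3 other genes over each locus, among them the *Mhrt* RNA and *Mir208b* at *Myh7* and *Mir208a* at *Myh6*, and strand use in counting is not given in the sources used here. The sum of *Myh6* and *Myh7* depends less on this division and was added after their values had been seen. WT totals were 1868 and 1847 FPKM, and miR-187 totals were 878 and 1266 FPKM. The WT libraries, so far apart for *Myh7*, were therefore alike in their heavy chain total, and both miR-187 libraries were below them. The log2 difference of the total was -0.82, with an exact two-sided permutation p of 0.333, the smallest that 2 libraries against 2 can give, and 0.500 after adjustment over the sums of the 3 isoform pairs.

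*Mybpc3* (ENSMUSG00000002100, chromosome 2, 91118114 to 91136516) encodes cardiac myosin-binding protein C, which tethers and restrains myosin heads. WT libraries gave 111 and 259 FPKM, whereas miR-187 libraries gave 91.8 and 85.5 FPKM. The miR-187 libraries were nearly equal and lay just under WT replicate 1, while WT replicate 2 was 2.32 times WT replicate 1. The log2 difference came to -0.93 ± 0.45 (standard error), and to -0.33 without WT replicate 2 (limma adjusted p = 1.00 for both). Without WT replicate 1 it was -1.54.

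*Ttn* (ENSMUSG00000051747, chromosome 2, 76703980 to 76982557) encodes titin, the elastic filament that spans from Z disc to M band. WT libraries gave 20.6 and 45.8 FPKM, whereas miR-187 libraries gave 21.2 and 9.49 FPKM. The groups overlapped, since miR-187 replicate 1 was slightly above WT replicate 1, but were separate with TMM factors, median centring or quantile normalization. *Ttn* and *Mybpc3* were the members whose lowest library was miR-187 replicate 2, and for the remaining 8 it was miR-187 replicate 1. *Ttn* differed by -1.06 on the log2 scale, with standard error 0.45 and an interval of -1.99 to -0.13 (limma unadjusted p = 0.0273, adjusted p = 1.00), and its own 4 values gave a standard error of 0.78. The difference was -0.50 without WT replicate 2 and -0.52 without miR-187 replicate 2, and -1.61 and -1.60 without WT replicate 1 and miR-187 replicate 1.

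Among the thin filament genes, *Actc1* (ENSMUSG00000068614, chromosome 2, 114047282 to 114052875), the main actin of the heart, gave 2164 and 4083 FPKM for WT, and 1517 and 1862 FPKM for miR-187. Both miR-187 libraries lay below WT replicate 1, and WT replicate 2 stood well above all others. Its log2 difference came to -0.82 ± 0.46 (standard error), and to -0.36 without WT replicate 2 (limma adjusted p = 1.00 for both). Without WT replicate 1 it was -1.28.

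*Acta1* (ENSMUSG00000031972, chromosome 8, 123891758 to 123894775), the actin of skeletal muscle and of the fetal program, was the least abundant member on average. WT libraries gave 19.7 and 37.1 FPKM, whereas miR-187 libraries gave 6.16 and 22.7 FPKM. The groups overlapped, and the miR-187 libraries were 3.68-fold apart. Of all tested IDs, 0.908% differed by as much between the miR-187 replicates. The log2 difference was -1.11, with an interval of -2.10 to -0.12 (limma unadjusted p = 0.0303, adjusted p = 1.00). The moderated standard error was 0.48, and the 4 values of *Acta1* alone gave 0.97. The difference was -0.25 without miR-187 replicate 1 and -1.97 without miR-187 replicate 2. It was -0.67 without WT replicate 2 and -1.55 without WT replicate 1. Like the heavy chains, both actins are closely similar in sequence, and fragments of the abundant *Actc1* could be assigned to *Acta1* or the reverse. Their sum, also added after the values had been seen, was 2184 and 4119.9 FPKM for WT, against 1523 and 1884 FPKM for miR-187, without overlap (log2 difference -0.82, exact permutation p = 0.333, adjusted 0.500).

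Troponin consists of a calcium-binding subunit, an inhibitory subunit and a subunit that anchors the complex to tropomyosin. *Tnnc1* (ENSMUSG00000091898, chromosome 14, 31208312 to 31211729), the calcium sensor, gave 2118 and 3408 FPKM for WT, and 1503 and 1825 FPKM for miR-187. *Tnnt2* (ENSMUSG00000026414, chromosome 1, 135836315 to 135852268), the tropomyosin anchor, gave 1978 and 4126 FPKM for WT, and 1419 and 2695 FPKM for miR-187. The groups were separate for *Tnnc1* and overlapped for *Tnnt2*, where miR-187 replicate 2 was above WT replicate 1. The log2 differences were -0.70 for *Tnnc1* and -0.55 for *Tnnt2*, with standard errors of 0.45 and 0.49 (limma adjusted p = 1.00 for both). Without WT replicate 2 they became -0.35 and -0.02, and without miR-187 replicate 1 they became -0.56 and -0.08. Omission of WT replicate 1 gave -1.04 and -1.08, and omission of miR-187 replicate 2 gave -0.84 and -1.01.

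The inhibitory subunit exists in a fetal and an adult form. *Tnni3* (ENSMUSG00000035458, chromosome 7, 4518305 to 4522718), the adult cardiac form, gave 1644 and 2045 FPKM for WT, and 940 and 2023 FPKM for miR-187. The second replicates of both groups were nearly equal, and miR-187 replicate 1 was low. *Tnni1* (ENSMUSG00000026418, chromosome 1, 135783033 to 135810989), the fetal form, gave 513 and 1410 FPKM for WT, and 450 and 690 FPKM for miR-187, so that WT replicate 2 alone was high. The groups overlapped for both genes. The log2 differences were -0.41 for *Tnni3* and -0.61 for *Tnni1*, with standard errors of 0.47 and 0.49 (limma adjusted p = 1.00 for both). Without WT replicate 2, *Tnni1* was slightly higher in miR-187, by 0.12, and without miR-187 replicate 1, *Tnni3* was higher by 0.14. The sum of both forms was 2158 and 3455 FPKM for WT, against 1389.6 and 2713 FPKM for miR-187, and overlapped (log2 difference -0.49, exact permutation p = 0.667, adjusted 0.667). The lowest values on leaving out a library were -1.34 for *Tnni1* (without WT replicate 1) and -0.96 for *Tnni3* (without miR-187 replicate 2).

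*Tnni1* and *Tnnt2* neighbour each other on chromosome 1, with 25325 bp and 1 further gene, *Lad1*, between them in RefSeq. Both were highest in WT replicate 2, next in miR-187 replicate 2, and lowest in miR-187 replicate 1, as were *Tnni3* and *Acta1*, which lie on other chromosomes.

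Considering all 10 genes together, 0 were past the adjusted threshold of 0.05 in either direction (limma), where 0.00698% of tested IDs were called lower and 0% higher. At an unadjusted p under 0.05, 3 of the 10 were lower (*Myh7*, *Acta1* and *Ttn*) and 0 were higher, whereas 1.80% of tested IDs were lower at that level. That count was 0 without WT replicate 2 and 6 without WT replicate 1, where 1.94% and 4.64% of tested IDs were lower, and it was 0 with no filter on low values (1.46% of IDs). All 10 had a lower mean in miR-187, compared with 55.7% of tested IDs, and their median log2 difference was -0.76 against -0.04 for all tested IDs. Both miR-187 libraries were below both WT libraries for 5 of the 10 (*Myh6*, *Myh7*, *Mybpc3*, *Actc1* and *Tnnc1*), compared with 13.2% of tested IDs, and above them for 0. With TMM factors or median centring this held for 4 (*Ttn*, *Mybpc3*, *Actc1* and *Tnnc1*), where 12.7% and 12.8% of tested IDs did so. These genes are parts of one structure and came from the same 4 libraries, so the 10 are not independent of each other.

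The size of this difference depended on single libraries of both groups. Without WT replicate 2, 9 of the 10 genes had a lower value in miR-187 (51.9% of tested IDs) and the median log2 difference was -0.36 (-0.02 over all tested IDs). Without miR-187 replicate 1, 9 of the 10 were again lower (63.3% of tested IDs), with a median of -0.44 (-0.14 over all tested IDs). The median grew to -1.31 without WT replicate 1 and to -0.94 without miR-187 replicate 2, with -0.04 and 0.06 over all tested IDs. Genes with every miR-187 value below every WT value numbered 5 without WT replicate 2 and 6 without miR-187 replicate 1, where 31.3% and 44.2% of tested IDs did so. They numbered 10 without WT replicate 1 and 9 without miR-187 replicate 2, where 34.3% and 24.0% of tested IDs did so.

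The gap between the groups exceeded that between the WT replicates for 4 genes (*Myh6*, *Tnni3*, *Tnnc1* and *Acta1*) and for 32.5% of tested IDs. It exceeded that between the miR-187 replicates for 5 (*Myh6*, *Myh7*, *Tnnc1*, *Actc1* and *Mybpc3*) and for 32.8% of tested IDs. It exceeded the gaps within both groups for *Myh6* and *Tnnc1*, 2 of the 10, compared with 14.4% of tested IDs.

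**Figure D2:**
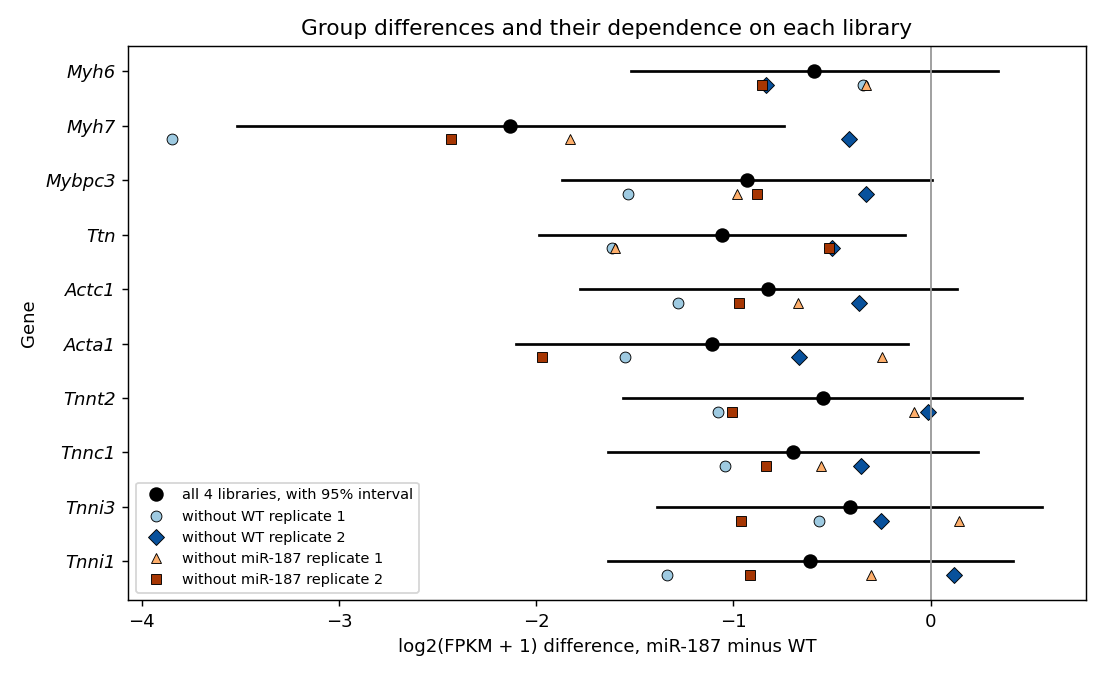
Log2(FPKM + 1) difference, miR-187 minus WT (x axis), for each gene (y axis), with the limma 95% interval as a black line and, beneath it, the difference after each library was left out. All 10 black points lie below 0, the intervals of 7 genes cross it, and the points without WT replicate 2 (dark diamonds) lie closer to 0 than the black points for 9 of the genes, *Myh6* being the exception.

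The replicates themselves were compared next. In WT, 9 of the 10 genes were higher in replicate 2 than in replicate 1, with a median log2 difference of 0.99, whereas over all tested IDs the median was 0.04 and 52.8% were higher. In miR-187, 8 of the 10 were higher in replicate 2, with a median of 0.56, whereas over all tested IDs the median was -0.19 and 34.9% were higher. Absolute differences between the WT libraries had a median of 0.99 for the sarcomere genes and 0.43 for 3737 IDs averaging 10 FPKM or more. WT replicate 2 was the highest library for 9 of the 10 genes and for 43.6% of these abundant IDs. ENSMUSG00000075014.1, whose share was lower in replicate 2 of both groups, was among the IDs left out above. Without those IDs the sarcomere share in replicate 2 against replicate 1 was 3.39% against 2.34% for WT and 2.21% against 1.66% for miR-187. With them it was 2.30% against 1.29% for WT and 1.32% against 0.870% for miR-187. How far that ID contributes to the difference between replicates was not tested.

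**Figure D3:**
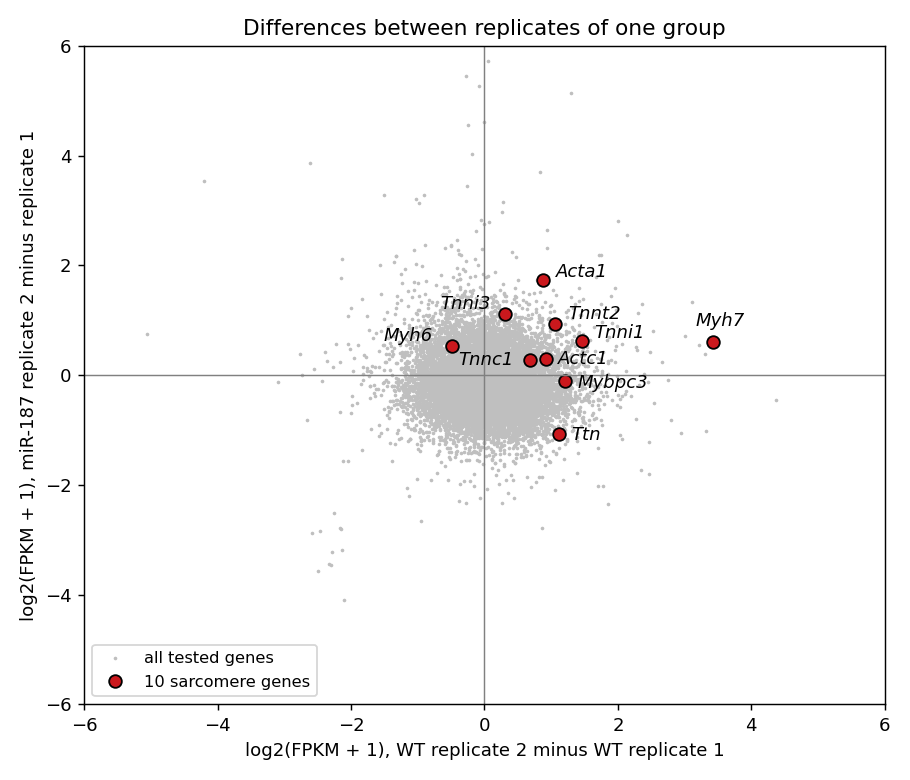
Differences between replicates in WT (x axis) and in miR-187 (y axis) on the log2(FPKM + 1) scale, with all tested IDs in grey and the 10 sarcomere genes in red, 8 grey IDs being outside the axes. Of the 10 genes, *Myh7* lies farthest right at 3.43, *Acta1* highest at 1.72 and *Ttn* lowest at -1.08, and 7 of the 10 genes lie in the upper right, where replicate 2 is higher in both groups.

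Isoform ratios do not depend on the scale of a library, and were used to compare the libraries in their balance of fetal and adult forms. The ratio of *Myh6* to *Myh7* was 36.0 for WT replicate 1 and 2.33 for WT replicate 2, compared with 27.9 and 26.2 for the miR-187 libraries. *Myh7* thus made up 30.0% of the heavy chain transcripts in WT replicate 2 and between 2.70% and 3.67% in the other libraries. The miR-187 values fell between those of the WT libraries. On the log2 scale the ratio was 3.20 ± 2.79 in WT and 4.76 ± 0.06 in miR-187 (SD, n = 2 each). The difference of 1.56 was smaller than the spread in WT and turned to -0.41 without WT replicate 2.

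The ratio of *Tnni3* to *Tnni1* was 3.20 and 1.45 in WT, and 2.09 and 2.93 in miR-187. The fetal *Tnni1* accounted for 23.8% and 40.8% of troponin I transcripts in WT and for 32.4% and 25.4% in miR-187. WT replicate 2 again had the largest fetal share, but the libraries differed far less than for myosin, by 2.21-fold at most compared with 15.5-fold. The mean log2 ratio was 1.11 ± 0.81 in WT and 1.31 ± 0.34 in miR-187 (SD, n = 2 each), a difference of 0.20 that became -0.37 without WT replicate 2.

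The ratio of *Actc1* to *Acta1* was 110 for both WT libraries, compared with 246 and 82.1 for the miR-187 libraries. *Acta1* was a small part of both actins in every library, between 0.405% and 1.20%. In contrast to the other pairs, WT replicate 2 was not set apart, and the spread lay in the miR-187 group. The mean log2 ratio was 6.78 ± 0.00095 in WT and 7.15 ± 1.12 in miR-187 (SD, n = 2 each), a difference of 0.37 that became -0.42 without miR-187 replicate 1.

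The groups overlapped in all 3 ratios, and the exact two-sided permutation test gave p = 1 for each, before and after Benjamini-Hochberg adjustment over the 3 ratios. With 2 libraries against 2 the smallest possible p is 0.333, so the test could not have passed a threshold of 0.05. Each ratio had its mean toward the adult form in miR-187, and each difference between the groups changed sign when 1 library was left out.

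**Figure D4:**
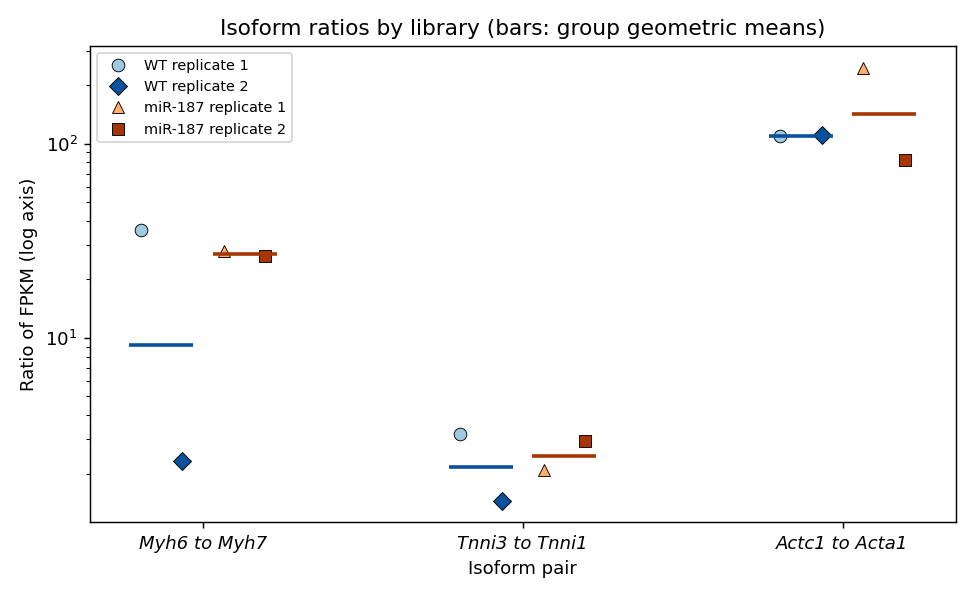
Ratio of FPKM on a log axis (y axis) for the 3 isoform pairs (x axis), with a point for each library and a bar at the geometric mean of each group. *Myh6* to *Myh7* is 2.33 in WT replicate 2 and at least 26.2 elsewhere, whereas *Actc1* to *Acta1* is 110 in both WT libraries and spreads only in miR-187.

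Finally, the composition of the sarcomere transcripts was compared by centring the log2 values of each library on the mean of the 10 genes, an alternative added after the data had been seen. *Actc1* was the steadiest member, with a range of 0.24 over the 4 libraries, followed by *Tnnc1* with 0.48, *Tnni1* with 0.54 and *Tnnt2* with 0.56. *Myh7* ranged over 2.48, *Ttn* over 1.57 and *Myh6* over 1.55. Per FPKM, *Actc1* and *Tnnc1* were present at 1.02 to 1 in WT replicate 1, 1.20 in WT replicate 2, and 1.01 and 1.02 in miR-187, although their levels differed more than 2-fold between libraries. The ratio of *Tnnt2* to *Tnnc1* varied somewhat more, from 0.934 and 1.21 in WT to 0.944 and 1.48 in miR-187. *Mybpc3* relative to *Myh6*, the heavy chain it binds, was 0.0613 and 0.200 in WT and 0.108 and 0.0701 in miR-187, with the groups overlapping.

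This centring forces the 10 differences between groups to sum to 0, so that mixed signs follow from it and are no result. On this scale the difference furthest below the mean of the 10 genes was -1.24, for *Myh7*, and the furthest above was 0.48, for *Tnni3*.

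**Figure D5:**
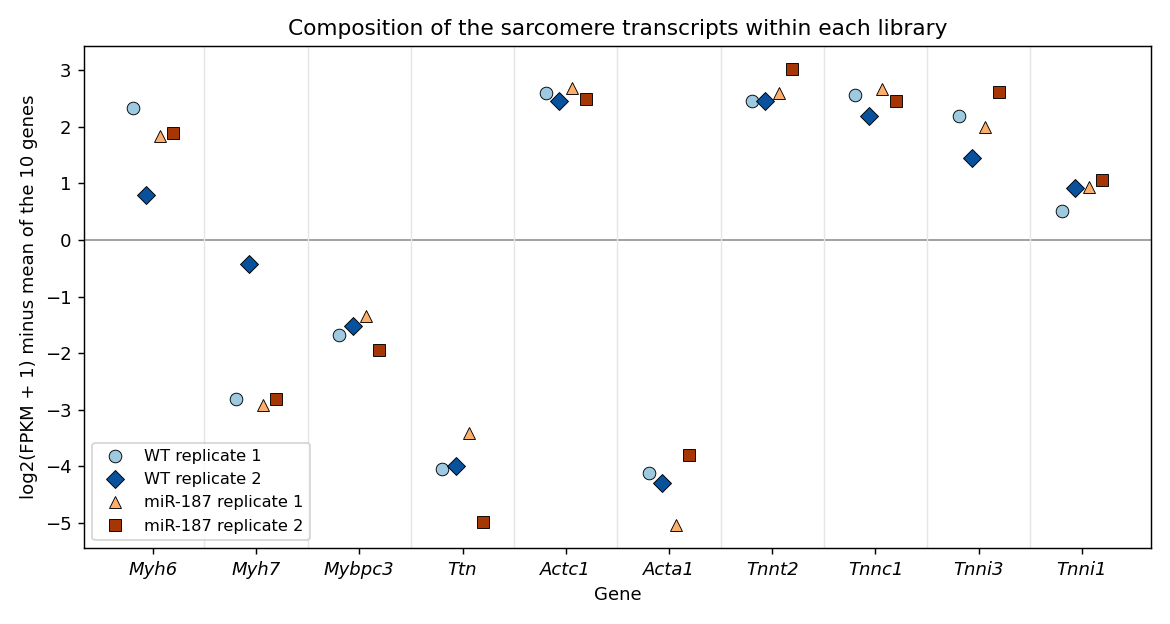
Log2(FPKM + 1) of each gene minus the mean of the 10 genes in the same library (y axis), by gene (x axis) and library. Points of *Actc1* and *Tnnc1* nearly coincide, while *Myh7* and *Myh6* in WT replicate 2 are displaced in opposite directions, to -0.43 and 0.79.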

How the data were processed

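The authors deposited 1 table of FPKM values per gene ID and library. The submitters' processing notes name HISAT2, StringTie, DESeq2 and the build mm10, without versions. DESeq2 needs counts, so it could not be used on these FPKM values. Annotation and strand use are not given in the sources used here. FPKM is scaled to each library's total, so a few abundant transcripts can lower all others. Depth is unknown, and no interval from counts was possible.

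Values were transformed as log2(FPKM + 1), IDs averaging 1 FPKM or more were tested, and the contrast was fitted with limma (version 3.58.1, R version 4.3.3, eBayes with trend, two-sided, Benjamini-Hochberg adjustment over all 14325 IDs). Moderated standard errors and 95% intervals are given. Isoform ratios were compared by exact permutation tests (scipy 1.17.1). The procedure was also run on simulated data, as independent normal values with the moderated spread of each gene. These hold no shift shared within a library and no outlying library, so the run does not show how the fit handles them. The 10 genes and all lists were chosen with earlier results of these data known, and all 10 were named by rule, together with the 2 IDs nearest in profile to *Myh7* and to *Acta1*. Gene positions came from a RefSeq table (GRCm38.p6) matched by symbol. As 0 of its 49997 rows held an Ensembl ID, 15 lists of further sarcomere genes and cell type markers are not analysed here, and neither are sequences. Alternatives covered pseudocount, filters, scaling, variance, the replicate block and omission of each library. Labels give the replicate numbers no shared litter or batch.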

Additional observations from a re-analysis of the deposited data

How the results depend on the processing

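Members past the threshold numbered 0 in either direction. The lower count became 1, *Myh7* in each case, with a minimum mean of 0.1 FPKM (adjusted p = 0.00163), with the replicate block (adjusted p = 0.00487), without WT replicate 1 and without miR-187 replicate 2 (limma), so leaving out a library gave between 0 and 1. In these fits the prior degrees of freedom were infinite, and the spread of *Myh7* between WT libraries no longer entered its test. The log2 difference of *Myh7* ranged from -3.85 to -0.41 over all alternatives. The lowest was without WT replicate 1, where WT replicate 2 is the lone WT library and the error is taken from other genes. The replicate block changed no other call among the members. Deviations of same-numbered libraries correlated across tested IDs with r = -0.0675. A correlation over all IDs cannot exclude a batch that acts on some genes only. In replicate 2 of both groups, 7 of the 10 genes were higher and ENSMUSG00000075014.1 was lower. Of all tested IDs, 52.8% were higher in replicate 2 of WT and 34.9% in replicate 2 of miR-187.

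Over all tested IDs, called genes (1 lower, 0 higher) came to 15 lower and 31 higher for the 0.1 FPKM minimum, 18 and 33 with the replicate block, and 2 and 4 with robust eBayes. The lower count was 0 with a minimum mean of 5 FPKM, without a filter and with quantile normalization, and the higher count was 10 when values were centred on the 10 genes. The cause was not tested. Leaving out 1 library gave from 14 to 56 lower and from 11 to 62 higher.

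Of 150 values for the 10 genes under alternatives fixed at the outset, 144 kept direction and side of the threshold. The 2 that changed sign were *Tnni1* without WT replicate 2 (0.12) and *Tnni3* without miR-187 replicate 1 (0.14). Their ranges over single omissions were -1.34 to 0.12 and -0.96 to 0.14. Changes of the filter, the variance model or the replicate block leave each log2 difference as it is, so direction could not change there. No member was near the adjusted threshold in the main fit either, so the 144 say little about stability. Centring on the 10 genes, which by construction removes their shared level, gave 0.30 for *Myh6*, 0.28 for *Tnni1*, 0.48 for *Tnni3*, 0.34 for *Tnnt2*, 0.19 for *Tnnc1* and 0.068 for *Actc1*. Genes with separate groups numbered 4 rather than 5 with median centring and TMM factors (12.8% and 12.7% of tested IDs), where *Myh6* and *Myh7* overlapped and *Ttn* did not, and 5 with quantile normalization (13.7%), where *Myh6* overlapped and *Ttn* did not. Leaving out a library gave from 5 to 10. Differences in the log2 ratios ran from -0.41 to 3.54 for *Myh6* to *Myh7*, -0.37 to 0.77 for *Tnni3* to *Tnni1* and -0.42 to 1.16 for *Actc1* to *Acta1*. Depth limits cannot be given, as FPKM holds no counts.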

Other observations

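Profiles over the 4 libraries were compared with *Myh7* and *Acta1* by the Euclidean distance of centred log2(FPKM + 1) values, among 3736 other IDs averaging 10 FPKM or more. With 4 libraries such likeness is a description only. The ID nearest to *Myh7* was ENSMUSG00000057666.18, at a distance of 0.177, at 15.5 and 162 FPKM for WT, and 9.09 and 12.2 FPKM for miR-187. It shared the high value in WT replicate 2. The next, ENSMUSG00000031382.14, was at 0.900, at 9.12 and 67.1 FPKM for WT, and 8.26 and 7.73 FPKM for miR-187. *Mybpc3* was the nearest sarcomere gene, at rank 68 and a distance of 2.04, and *Myh6* the farthest, at rank 2012.

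The ID nearest to *Acta1* was ENSMUSG00000030399.2, at a distance of 0.259, at 146 and 307 FPKM for WT, and 63.7 and 177 FPKM for miR-187. ENSMUSG00000073940.3 followed at 0.457. Among the sarcomere genes, *Tnnt2* was nearest to *Acta1*, at rank 37. The table pairs no names with these IDs, and none was looked up.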
